A study of Arabidopsis thaliana with 9 samples.

Results

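The 9 genes described here encode myrosinases and the proteins that steer the outcome of glucosinolate breakdown. They were chosen by gene identifier, with earlier results of these data known, and make up 9 of the 37898 genes in a table of FPKM values. FPKM values are read abundances scaled by transcript length and by the size of the library. RNA was measured in 2-week-old Arabidopsis thaliana seedlings of the Col-0 ecotype, all with a treatment labelled Mock. There were n = 3 libraries of nrpe1-11, n = 3 labelled nrpd1-3 and n = 3 of wild-type Col-0. The nrpe1-11 allele affects NRPE1, which encodes the largest subunit of RNA polymerase V, and nrpd1-3 affects NRPD1, which encodes the corresponding subunit of RNA polymerase IV. Both polymerases act in RNA-directed DNA methylation. Each mutant is represented by 1 allele, and nothing in the labels tells whether replicate libraries stem from separate pools of plants, so p-values reflect library-to-library spread, which may be technical. In such bulk RNA, fewer cells of a type and less RNA per cell cannot be told apart.

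Glucosinolates are sulfur-rich glucosides that Arabidopsis stores apart from the enzymes that cleave them. When tissue is crushed, a myrosinase removes the glucose, and the unstable aglycone rearranges to an isothiocyanate. Specifier proteins divert the aglycone to a nitrile or an epithionitrile instead. TGG1 and TGG2 are the classical myrosinases of the shoot, stored in guard cells and in myrosin cells along the veins. PYK10 (BGLU23) is an atypical myrosinase of endoplasmic reticulum bodies, abundant in roots. ESP promotes epithionitriles, NSP1, NSP2 and NSP5 promote simple nitriles, and the GDSL lipase-like protein ESM1 favours isothiocyanates. MVP1 is a GDSL lipase-like protein needed for normal endomembrane organisation and is related to ESM1.

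The myrosinase genes differ in 1 codon that separates the classical from the atypical enzymes. In most β-glucosidases of this family a glutamate acts as the catalytic acid/base, and classical myrosinases carry a glutamine there. The coding stretches around this codon are shown because they place each enzyme in its class, with the codon in capitals. They come from RefSeq, build TAIR10.1, and are written 5′ to 3′ on the coding strand. The TGG1 stretch lies at chr5:9081202-9081252 (minus strand, codon 205), that of TGG2 at chr5:9073898-9073948 (plus strand, codon 217), that of PYK10 at chr3:2842141-2842191 (minus strand, codon 203) and that of its relative BGLU18 at chr1:19516365-19516415 (plus strand, codon 207).
TGG1: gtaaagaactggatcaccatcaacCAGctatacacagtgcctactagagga
TGG2: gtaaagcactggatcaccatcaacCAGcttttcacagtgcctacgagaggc
PYK10: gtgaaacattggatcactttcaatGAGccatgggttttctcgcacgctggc
BGLU18: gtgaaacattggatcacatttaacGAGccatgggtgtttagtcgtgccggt
TGG1 and TGG2 had the glutamine codon CAG, and PYK10 and BGLU18 had the glutamate codon GAG. PYK10 also ends in codons for an endoplasmic reticulum retention signal, shown in capitals as the last coding bases before its stop codon (chr3:2840660-2840701, minus strand), while the last codons of TGG1 and TGG2 encode no such signal.
PYK10 end: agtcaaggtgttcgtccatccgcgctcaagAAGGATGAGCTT

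TGG1 (AT5G26000, chr5:9079452-9082384, minus strand) and TGG2 (AT5G25980, chr5:9072708-9075777, plus strand) point towards each other on chromosome 5, 3.7 kb apart with 2 annotated loci between them. Each has 12 coding exons, and their coding sequences were 82.6% identical over 1604 aligned bases, with a longest exact stretch of 55 bases. The 250 bases before each annotated gene start are printed because the pair diverged in its RNA in nrpe1-11, as described below. Capitals mark exact runs of at least 12 bases that occur in both windows. The TGG1 window is chr5:9082385-9082634 (minus strand) and the TGG2 window chr5:9072458-9072707 (plus strand), both from RefSeq, build TAIR10.1.
TGG1 upstream: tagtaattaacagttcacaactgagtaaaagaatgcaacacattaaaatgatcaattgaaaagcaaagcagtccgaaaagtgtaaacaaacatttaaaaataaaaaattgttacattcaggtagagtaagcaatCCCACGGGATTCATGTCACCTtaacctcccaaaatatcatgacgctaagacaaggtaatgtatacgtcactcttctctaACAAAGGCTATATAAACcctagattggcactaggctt
TGG2 upstream: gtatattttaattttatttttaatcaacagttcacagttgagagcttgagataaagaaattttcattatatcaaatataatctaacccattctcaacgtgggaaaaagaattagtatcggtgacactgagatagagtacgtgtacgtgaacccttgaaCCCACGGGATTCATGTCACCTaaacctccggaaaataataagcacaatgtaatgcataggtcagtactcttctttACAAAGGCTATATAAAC
The windows shared 2 such runs, of 38 bases in all, the longer one of 21 bases. The shorter run holds the letters TATAAA, which 32.9% of the 27443 windows of this length before protein-coding genes hold on the same strand. The G-box letters CACGTG, searched on both strands, were in 0 of the 9 members' windows and in 6.5% of all windows. The letters CATGTG, on either strand, were in the windows of ESM1 and NSP5 and in 11.1% of all windows. The NSP5 window overlaps another annotated locus, AT5G48190. The letters TTGAC, on either strand, were in the windows of PYK10, ESP and MVP1 and in 44.9% of all windows. CACGTG and CATGTG cannot lie on the same bases, and no factor's binding was measured.

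The libraries rested on 1.01 to 1.25 gigabases of aligned sequence, as estimated from the steps between low values, and had 16802 to 17604 genes at an FPKM of at least 1. Col-0 replicate 2 stood apart on the second principal component (15.5% of the variance), and its ribosomal RNA share of 21.4% was the highest of the 9 libraries, which ranged upward from 14.2%. The first component (47.9%) separated the nrpe1-11 libraries from all others. Leaf and root markers were present in every library, while the 6 seed storage markers summed to at most 0.301 FPKM and 3 of them were at 0 throughout, none being tested. NRPE1 had 0.624, 0.254 and 0.339 FPKM in nrpe1-11 libraries and 0.831, 0.843 and 0.863 FPKM in Col-0 libraries (log2 fold change -0.40, adjusted p = 0.196). NRPD1 had 0.674, 0.670 and 0.947 FPKM in the libraries labelled nrpd1-3, against 0.565, 0.489 and 1.05 FPKM in Col-0 libraries (0.06, adjusted p = 0.948). NRPD1 RNA was thus no lower in its own labelled mutant. NRPD1 was called higher in nrpe1-11 than in Col-0 (1.95 against 0.703 FPKM, limma adjusted p = 0.019). NRPE1 was called lower in nrpe1-11 than in the libraries labelled nrpd1-3 (0.406 against 1.29 FPKM, limma adjusted p = 0.0365). Testing asked for at least 1 FPKM in at least 3 libraries. NRPD1 met this only through the nrpe1-11 libraries and NRPE1 only through those labelled nrpd1-3, so both calls are a description. The labels do not give the position of either lesion, so these whole-gene values are only a partial check, and the label nrpd1-3 is used as given.

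In these seedlings the 9 genes ran from among the most abundant RNAs to one listed at 0. TGG1 had the highest mean among the 9 in 2 genotypes, with 463 ± 8.3 FPKM in nrpd1-3-labelled libraries and 425 ± 21.7 FPKM in Col-0 (SD, n = 3 each), and PYK10 was the most abundant in nrpe1-11, with 524 ± 11.6 FPKM (SD, n = 3). In Col-0 the order was TGG1, PYK10 (396 ± 63.6), ESM1 (176 ± 9.34), TGG2 (140.2 ± 3.7), NSP1 (52.8 ± 7.09), NSP5 (52.2 ± 4.42), MVP1 (26.8 ± 2.69), ESP (1.3 ± 0.29) and NSP2, which was listed at 0 in all 9 libraries (SD, n = 3 each). PYK10 exceeded TGG1 in 2 of the 3 libraries labelled nrpd1-3 and in 1 of the 3 Col-0 libraries. TGG1 and PYK10 overlapped between Col-0 libraries, as did NSP1 and NSP5, while the other neighbours in this order did not. By mean FPKM, PYK10 ranked 49 among 37898 genes in nrpe1-11, 78 in the libraries labelled nrpd1-3 and 86 in Col-0. TGG2 moved the other way, to rank 595 in nrpe1-11, against 279 in the libraries labelled nrpd1-3 and 298 in Col-0.

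**Figure D1:**
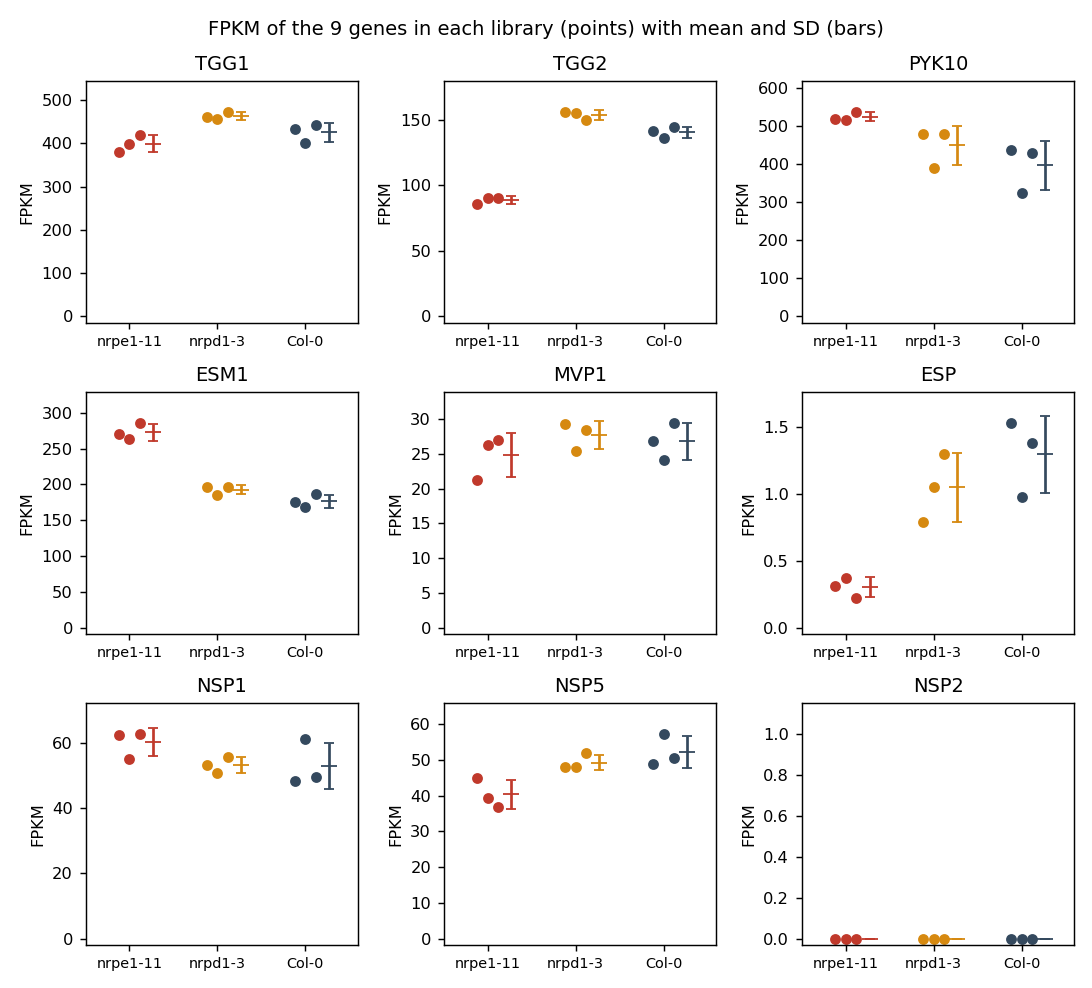
FPKM of each of the 9 genes (y axis, starting just below 0) in every library, as points grouped by genotype, with the mean and SD of n = 3 libraries as a bar. TGG2 in nrpe1-11 (85.6 to 90.6 FPKM) lay below all other libraries, ESM1 in nrpe1-11 (263 to 286 FPKM) lay above them, and NSP2 was at 0 throughout.

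Setting nrpe1-11 against Col-0 asked whether the RNA of these genes differs in a mutant of RNA polymerase V. Of the 9 genes, 8 were tested by limma on log2(FPKM + 1), and 5 were called at an adjusted p under 0.05. ESM1 and PYK10 were higher, and TGG2, NSP5 and ESP were lower. ESP entered the test only through the other genotypes, where it is higher, so that its call is a description and is not to be read against the background. Among all 18212 tested genes, 14.2% were called higher and 7.54% lower. An unadjusted limma p under 0.05 was found for 5 of the 8 members and for 6408 of all tested genes. How many genes or gene ratios have nrpe1-11 libraries wholly above or below the others was not counted. Such separations are therefore given below only as a description. The median log2 fold change was -0.10 over the 8 members and 0.17 over all tested genes. That shift of all genes depends on scaling: the counts were 2581 higher and 1374 lower on the deposited values, and 1206 higher and 2166 lower after median-ratio rescaling, where the median was 0.02.

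Among the members, TGG2 showed the largest difference relative to its error. It had 85.6, 90.0 and 90.6 FPKM in nrpe1-11 libraries, 156, 155 and 149.5 FPKM in the libraries labelled nrpd1-3, and 141, 136 and 144 FPKM in Col-0 libraries. Every nrpe1-11 library lay below every other library. The mean was 88.7 ± 2.76 FPKM in nrpe1-11 and 140.2 ± 3.7 FPKM in Col-0 (SD, n = 3 each), a log2 fold change of -0.65 (SE 0.0759, limma adjusted p = 1.99e-05), or -0.83 relative to the median of all genes. TGG2 was called lower under all 15 alternative settings, with log2 fold changes between -0.84 and -0.63. The 5 leaf markers, genes of photosynthesis such as RCA, also all fell, with a summed level of 3731 to 4178 FPKM in nrpe1-11 libraries and 5721 to 6185 FPKM in Col-0 libraries. After quantile normalization 4 of these 5 were called lower, as were 1858 of all 18212 tested genes. The part of the leaf markers in the TGG2 result was not tested.

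TGG1, its convergent neighbour, did not pass the test. It had 380.2, 398 and 419.7 FPKM in nrpe1-11 libraries, 459.7, 457 and 473 FPKM in the libraries labelled nrpd1-3, and 433, 401 and 442 FPKM in Col-0 libraries. The nrpe1-11 and Col-0 libraries overlapped. The log2 fold change of nrpe1-11 against Col-0 was -0.09, with a 95% interval of -0.251 to 0.0712 and an adjusted p of 0.415 in limma. Its call depends on scaling: after median-ratio rescaling it was -0.28 (adjusted p = 0.0184), and after quantile normalization 0.006. The sum of TGG1 and TGG2 was 488 ± 22.3 FPKM in nrpe1-11 and 565 ± 25.4 FPKM in Col-0 (SD, n = 3 each). Of the 9 tested guard cell and stomatal lineage markers 0 were called in limma and 2 had an unadjusted p under 0.05, and the summed level of the 10 on the list was 69.3 to 80.5 FPKM in nrpe1-11 libraries and 68.8 to 95 FPKM in Col-0 libraries. After median-ratio rescaling 2 of them were called lower, GC1 (-0.40) and MUTE (-0.81). They are not the same 2, since HT1, with an unadjusted limma p of 0.0173, went up (0.66). MUTE reached 1 FPKM in no nrpe1-11 library and entered the test through the other genotypes, so its call is a description. These 3 markers are named after their values were seen.

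The balance within the pair can be read inside each library, where no scaling enters. The FPKM ratio of TGG1 to TGG2 was 4.44, 4.42 and 4.63 in nrpe1-11 libraries, 2.95, 2.95 and 3.16 in nrpd1-3-labelled libraries, and 3.07, 2.94 and 3.08 in Col-0 libraries. The nrpe1-11 libraries did not overlap with the others. The difference of nrpe1-11 from Col-0 was 0.57 on the log2 scale, with an exact two-sided permutation p of 0.1, the smallest that 3 libraries against 3 can give, and 0.15 after Benjamini-Hochberg adjustment over the 6 ratio tests. Against the libraries labelled nrpd1-3 it was 0.58, with the same exact p of 0.1. TGG2 made up 17.7% ± 0.31 of the FPKM of the 4 detected classical myrosinases in nrpe1-11, 24.5% ± 0.749 in the libraries labelled nrpd1-3, and 24.4% ± 0.49 in Col-0 (SD, n = 3 each).

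**Figure D2:**
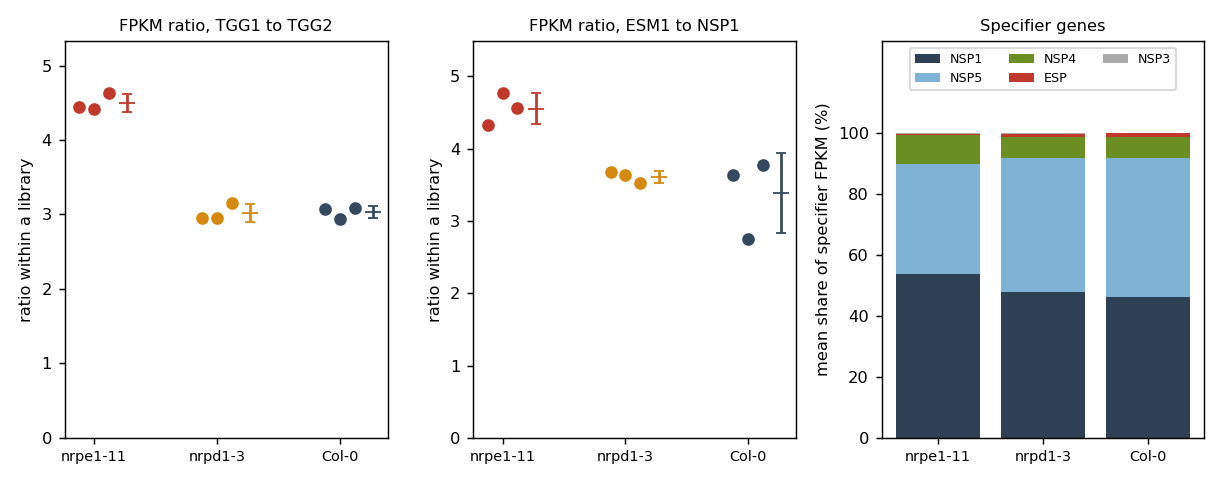
Left and middle, the FPKM ratios of TGG1 to TGG2 and of ESM1 to NSP1 within each library (points) with mean and SD of n = 3 libraries (bars), and right, the mean share of each gene in the summed FPKM of the specifier genes (percent). The TGG1 to TGG2 ratio averaged 4.5 in nrpe1-11, 3.02 in the libraries labelled nrpd1-3 and 3.03 in Col-0, and the share of NSP5 was 36.1% in nrpe1-11 and 45.7% in Col-0.

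PYK10 (AT3G09260, chr3:2840477-2843781, minus strand) was higher in nrpe1-11, on weaker grounds. It had 518, 516 and 537 FPKM in nrpe1-11 libraries, 479, 390.2 and 479 FPKM in the libraries labelled nrpd1-3, and 437, 323 and 429 FPKM in Col-0 libraries. All nrpe1-11 libraries lay above the others, and the lowest value was in Col-0 replicate 2, the library with the highest ribosomal RNA share. Among the libraries labelled nrpd1-3 the lowest value was also in replicate 2, with a ribosomal RNA share of 19.7%. In nrpe1-11, replicate 1 had the highest share of its group, 19.4%, and 518 FPKM, close to the 516 FPKM of replicate 2. The part of the ribosomal RNA share in these values was not tested. The log2 fold change of nrpe1-11 against Col-0 was 0.42 (SE 0.113, limma adjusted p = 0.0169), or 0.24 relative to the median of all genes. Without Col-0 replicate 2 it was 0.27 (adjusted p = 0.0562), and after median-ratio rescaling 0.23 (adjusted p = 0.0591), and neither passed the test. The call was also lost without nrpe1-11 replicate 3 (0.40, adjusted p = 0.0555) and with no filter on low genes (adjusted p = 0.0855). PYK10 overlaps AT3G09250 on the opposite strand, which had 10.3 ± 1.8 FPKM in nrpe1-11 and 9.85 ± 1.54 FPKM in Col-0 (SD, n = 3 each), and whether counting used strand is not stated in the sources used here. The 12 root markers, genes of the root endodermis, stele and epidermis, summed to 99.5 to 109 FPKM in nrpe1-11 libraries, 76.0 to 84.6 FPKM in the libraries labelled nrpd1-3, and 71.2 to 73.5 FPKM in Col-0 libraries. Of the 10 tested root markers 4 were called higher in limma, against 14.2% of all tested genes, or 2 after median-ratio rescaling. All 12 root markers were above 0 in each genotype, and their part in the PYK10 result was not tested.

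Among the modifiers of the outcome, ESM1 (AT3G14210, chr3:4729399-4731847, plus strand) rose most clearly. It had 270.2, 263 and 286 FPKM in nrpe1-11 libraries, 196, 185 and 196 FPKM in the libraries labelled nrpd1-3, and 175, 168 and 186 FPKM in Col-0 libraries. The nrpe1-11 libraries did not overlap with any other. The mean was 273 ± 11.9 FPKM in nrpe1-11 and 176 ± 9.34 FPKM in Col-0 (SD, n = 3 each), a log2 fold change of 0.63 (SE 0.0776, limma adjusted p = 3.75e-05), or 0.45 relative to the median of all genes. ESM1 was called higher under all 15 alternative settings, with log2 fold changes between 0.44 and 0.67. MVP1 (AT1G54030, chr1:20167597-20169684, plus strand) had 21.2, 26.3 and 27.1 FPKM in nrpe1-11 libraries, 29.3, 25.5 and 28.5 FPKM in the libraries labelled nrpd1-3, and 26.9, 24.1 and 29.5 FPKM in Col-0 libraries. The 3 genotypes overlapped, and the log2 fold change of nrpe1-11 against Col-0 was -0.11 (95% interval -0.363 to 0.146, limma adjusted p = 0.54).

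On the deposited values, the summed level of the specifier genes was close between genotypes, and their shares were less so. The sums were not compared under other scalings. The sum over ESP, NSP1, NSP2, NSP3, NSP4 and NSP5 was 112 ± 6.69 FPKM in nrpe1-11, 112 ± 5.26 FPKM in the libraries labelled nrpd1-3, and 114 ± 10.3 FPKM in Col-0 (SD, n = 3 each). NSP5 (AT5G48180, chr5:19540937-19542760, minus strand) had 44.8, 39.3 and 36.9 FPKM in nrpe1-11 libraries, 48.0, 47.9 and 51.8 FPKM in the libraries labelled nrpd1-3, and 48.8, 57.2 and 50.6 FPKM in Col-0 libraries. All nrpe1-11 libraries lay below the others, with a log2 fold change of -0.36 against Col-0 (SE 0.101, limma adjusted p = 0.0187). The call was lost without Col-0 replicate 2 (-0.30, adjusted p = 0.0541), without nrpe1-11 replicate 2 (-0.35, adjusted p = 0.0625) and without nrpe1-11 replicate 3 (-0.30, adjusted p = 0.0873). NSP5 made up 36.1% ± 2.4 of specifier FPKM in nrpe1-11 libraries and 45.7% ± 0.281 in Col-0 libraries (SD, n = 3 each), ranges that did not overlap.

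NSP1 (AT3G16400, chr3:5566083-5568545, plus strand) had the highest mean FPKM of the specifier genes, although NSP5 exceeded it in Col-0 replicates 1 and 3. It had 62.4, 55.1 and 62.6 FPKM in nrpe1-11 libraries, 53.2, 50.8 and 55.6 FPKM in the libraries labelled nrpd1-3, and 48.3, 61.0 and 49.3 FPKM in Col-0 libraries. The 3 genotypes overlapped, the highest Col-0 value being that of replicate 2, and the log2 fold change of nrpe1-11 against Col-0 was 0.19 (95% interval -0.0362 to 0.409, limma adjusted p = 0.217). Without Col-0 replicate 2 it was 0.29 (adjusted p = 0.041). NSP1 is uncertain as a single gene, since its coding sequence was 94.8% identical to that of NSP4, with an exact stretch of 366 bases, and 92.2% identical to that of NSP3. The 3 copies lie close together on chromosome 3, with 2 annotated loci between NSP1 and NSP4, and together they had 71.1 ± 4.48 FPKM in nrpe1-11, 61.3 ± 3.46 FPKM in the libraries labelled nrpd1-3, and 60.7 ± 6.13 FPKM in Col-0 (SD, n = 3 each). NSP2 (AT2G33070, chr2:14028282-14031164, minus strand), 86.3% identical to NSP1, was listed at 0 in all 9 libraries and was not tested.

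ESP (AT1G54040, chr1:20170715-20173949, minus strand) lies 1.0 kb from MVP1, and the Col-0 accession is known for little ESP activity. It had 0.308, 0.371 and 0.222 FPKM in nrpe1-11 libraries, 0.791, 1.05 and 1.30 FPKM in the libraries labelled nrpd1-3, and 1.53, 0.973 and 1.38 FPKM in Col-0 libraries. The nrpe1-11 values were the lowest, but all are small. From the FPKM, the estimated depth and the longest transcript of 1630 bases, they rest on an estimated 439 to 676 aligned bases per library in nrpe1-11. The estimates were 1612 to 2308 in the libraries labelled nrpd1-3 and 1606 to 3077 in Col-0. ESP has 3 annotated coding transcripts, so the length used need not apply. The log2 fold change on the log2(FPKM + 1) scale was -0.81 (SE 0.221, limma adjusted p = 0.0169). The added 1 weighs heavily on values this low, so the size of the difference is uncertain. No nrpe1-11 library reached the minimum of 1 FPKM that the filter asked of 3 libraries. The call was lost without Col-0 replicate 1 (-0.74, adjusted p = 0.0603) and without nrpe1-11 replicate 3 (-0.77, adjusted p = 0.0566).

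The FPKM ratio of ESM1 to NSP1 set the isothiocyanate-favouring gene against a nitrile specifier gene. It was 4.33, 4.77 and 4.57 in nrpe1-11 libraries, 3.68, 3.63 and 3.52 in nrpd1-3-labelled libraries, and 3.63, 2.75 and 3.78 in Col-0 libraries. All nrpe1-11 libraries lay above the others. The difference of nrpe1-11 from Col-0 was 0.44 on the log2 scale (exact permutation p = 0.1, adjusted 0.15), and from the libraries labelled nrpd1-3 it was 0.33 (exact permutation p = 0.1, adjusted 0.15). The lowest ratio, 2.75, was that of Col-0 replicate 2. With each library left out, the difference from Col-0 lay between 0.3 and 0.53, and that from the libraries labelled nrpd1-3 between 0.3 and 0.37. The ratio also carries the uncertainty of NSP1 as a single gene.

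The comparison of the libraries labelled nrpd1-3 with Col-0 asked the same of the RNA polymerase IV subunit, against the same Col-0 libraries. In limma, 0 of the 8 tested members were called, at a background of 0.0% higher and 0.0% lower over all 18212 genes. At an unadjusted p under 0.05 there were also 0 members, and 1284 of all genes. The 15 alternative settings likewise called 0 members. Log2 fold changes ran from -0.17 for ESP to 0.19 for PYK10, with a median of 0.08, against 0.11 over all tested genes. The 95% intervals still allow small differences: that of TGG2 ran from -0.0329 to 0.291, that of ESM1 from -0.0426 to 0.289 and that of ESP from -0.638 to 0.306. TGG1 and TGG2 did not overlap between these groups, with all 3 libraries labelled nrpd1-3 above Col-0. The share of all genes that separate in this way was not counted, and the limma adjusted p was 0.683 for TGG1 and 0.681 for TGG2. The TGG1 to TGG2 ratio differed by -0.01 on the log2 scale (exact permutation p = 1.0).

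The direct comparison of nrpe1-11 with the libraries labelled nrpd1-3 tested whether the mutants differ from each other. TGG2 was lower (log2 fold change -0.78, SE 0.0759, limma adjusted p = 2.78e-06) and ESM1 was higher (0.50, SE 0.0776, adjusted p = 0.000296). These 2 were the calls among the 8 tested members, and among all genes 6.19% were called higher and 8.52% lower. The median was -0.18 over the members and 0.06 over all tested genes. TGG1 (-0.21, limma adjusted p = 0.0729), ESP (-0.65, adjusted p = 0.0642) and NSP5 (-0.29, adjusted p = 0.0745) did not pass the test. Their nrpe1-11 libraries all lay below those labelled nrpd1-3, a separation whose share over all genes was not counted. ESP entered this test, too, only through the genotypes where it is higher. PYK10 was at 0.23 (adjusted p = 0.211), or 0.41 after quantile normalization, where it was called higher (adjusted p = 0.00436), MVP1 at -0.16 (adjusted p = 0.43) and NSP1 at 0.17 (adjusted p = 0.323).

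**Figure D3:**
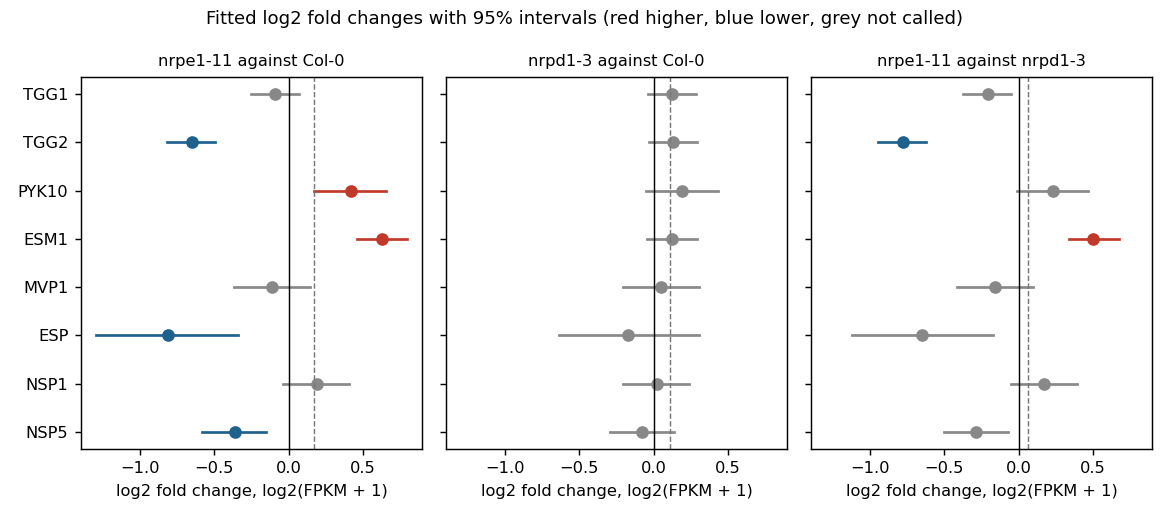
Fitted log2 fold changes of the 8 tested genes on the log2(FPKM + 1) scale (points) with 95% intervals (lines), with the left panel for nrpe1-11 against Col-0, the middle panel for nrpd1-3 against Col-0 and the right panel for nrpe1-11 against nrpd1-3. The dashed line marks the median of all tested genes (0.17, 0.11 and 0.06), red points were called higher, blue lower and grey not called. TGG2 and ESM1 were called in both panels with nrpe1-11 and none in the middle panel.

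The other genes of the system were described from 9 lists, compared between nrpe1-11 and Col-0. Counts of calls on these lists stand against 14.2% higher and 7.54% lower over all tested genes. In the libraries labelled nrpd1-3 against Col-0, limma called 0 of the 44 tested genes on these lists, here and under the 15 alternatives, and 2 had an unadjusted p under 0.05. Of the 4 further classical myrosinases 2 were tested, and TGG5, a root myrosinase, was higher at 6.58 ± 0.651 FPKM in nrpe1-11, against 4.45 ± 0.688 FPKM in Col-0 (SD, n = 3 each; log2 fold change 0.48, limma adjusted p = 0.0452). That call was lost after median-ratio rescaling, after quantile normalization and without Col-0 replicate 2. TGG3 and TGG6 were listed at 0 in all 9 libraries. Of the 2 further specifier genes NSP4 was tested and not called (0.42, adjusted p = 0.0713).

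The atypical β-glucosidases split by gene. Of 15 on the list 8 were tested, 2 were called higher and 3 lower, and the median log2 fold change was 0.00, against 14.2% higher, 7.54% lower and 0.17 over all tested genes. BGLU18, an enzyme of wound-induced endoplasmic reticulum bodies, had 13.7, 13.4 and 14.4 FPKM in nrpe1-11 libraries, against 35.1, 26.9 and 35.8 FPKM in Col-0 libraries (-1.17, limma adjusted p = 5.04e-06). BGLU27 was listed at 0 in 2 nrpe1-11 libraries and at 0.201 FPKM in the other, against 2.66 to 3.29 FPKM in Col-0 libraries (-1.91, adjusted p = 4.1e-06). Since BGLU27 passed the minimum of 1 FPKM only through Col-0 libraries and those labelled nrpd1-3, its call is a description. PEN2, an atypical myrosinase that acts on indole glucosinolates in pathogen defence, was lower (-0.46, adjusted p = 0.0117) and is named after its values were seen. BGLU21 and BGLU22, the close relatives of PYK10 in root endoplasmic reticulum bodies, were higher, at 0.65 (adjusted p = 0.001) and 0.63 (adjusted p = 0.0102). All 5 calls on this list were kept under the 3 other scalings and without Col-0 replicate 2. Within the FPKM of the endoplasmic reticulum body enzymes PYK10, BGLU21, BGLU22 and BGLU18, the BGLU18 share was 2.31% ± 0.042 in nrpe1-11, 7.2% ± 0.283 in the libraries labelled nrpd1-3 and 7.0% ± 0.123 in Col-0 (SD, n = 3 each).

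Genes that build endoplasmic reticulum bodies moved in both directions. NAI2, needed to form the bodies, had 95.1 ± 3.0 FPKM in nrpe1-11 and 63.5 ± 6.32 FPKM in Col-0 (SD, n = 3 each; 0.58, limma adjusted p = 0.0013). MEB1, a membrane protein of the bodies, was higher (0.49, adjusted p = 0.0161), but its call was lost after median-ratio rescaling and without Col-0 replicate 2, and it overlaps another locus. TSA1, a relative of NAI2, was lower (-0.64, adjusted p = 0.009). NAI1, the transcription factor of the pathway, was at 0.47 (limma adjusted p = 0.0518). Thus 2 of 5 tested genes were called higher and 1 lower, with a median of 0.47. Over all tested genes 14.2% were called higher and 7.54% lower, with a median of 0.17.

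Of the 10 myrosinase-binding and jacalin-related genes, 6 were called higher and 2 lower, with a median log2 fold change of 0.34, against 14.2% higher, 7.54% lower and a median of 0.17 over all tested genes. PBP1, a lectin that binds PYK10 in crushed tissue, had 181, 195 and 200.4 FPKM in nrpe1-11 libraries, against 135, 116 and 138 FPKM in Col-0 libraries (0.57, limma adjusted p = 0.000394). JAL22 was higher at 1.01 (adjusted p = 6.87e-05) and JAL32 at 0.82 (adjusted p = 0.00319). JAL34 was higher at 0.37 (adjusted p = 0.00546), a call lost after median-ratio rescaling and after quantile normalization, each of which left 3 higher calls on the list, and JAL34 overlaps JAL35 on the opposite strand. The 2 lower genes, named after their values were seen, were MBP2 (-0.78, adjusted p = 0.0204) and JAL23 (-0.91, adjusted p = 0.0189), both under 3 FPKM in every library. Neither reached 1 FPKM in more than 1 nrpe1-11 library, so both entered the test through the other genotypes, and their calls are a description. The JAL23 call was lost without Col-0 replicate 2. Of the 5 GDSL lipase-like relatives and neighbours of ESM1 and MVP1, 3 were tested and GLL23 was called higher, at 29.6 ± 0.483 FPKM in nrpe1-11, against 20.9 ± 1.07 FPKM in Col-0 (SD, n = 3 each; 0.48, adjusted p = 0.00421). AT1G54020, which lies beside MVP1 and is named after its values were seen, was not tested. It was listed at 0 in all nrpe1-11 libraries, at 0.543 to 1.05 FPKM in the libraries labelled nrpd1-3 and at 0.355 to 0.859 FPKM in Col-0 libraries.

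Over all tested genes 14.2% were called higher and 7.54% lower, which is the background for the 3 lists that follow. Among genes of myrosin cells and vacuolar trafficking, 1 of 8 was called. FAMA, the transcription factor that specifies guard cells and myrosin cells, had 13.8, 12.6 and 13.8 FPKM in nrpe1-11 libraries, against 11.3, 5.8 and 8.8 FPKM in Col-0 libraries (0.62, limma adjusted p = 0.0221). Its call was lost without Col-0 replicate 2 (0.39, adjusted p = 0.0736), the lowest of the Col-0 libraries. Nitrilases act on nitriles, not all of which are products of the specifiers. Of the 4 on the list 2 were called lower in limma and none higher. NIT4, which hydrolyses β-cyanoalanine and not a specifier product, had 2.74, 2.18 and 3.05 FPKM in nrpe1-11 libraries. In Col-0 libraries it had 20.5, 16.9 and 18.0 FPKM (-2.41, limma adjusted p = 1.81e-08). NIT1 had 96.3 ± 3.48 FPKM in nrpe1-11 and 142 ± 2.82 FPKM in Col-0 (SD, n = 3 each; -0.56, adjusted p = 0.000121). Both nitrilase calls were kept under the 3 other scalings and without Col-0 replicate 2. Of the 3 glucosinolate transporters, GTR2 (0.51, adjusted p = 0.00787) and GTR3 (0.59, adjusted p = 0.029) were higher, and both calls were lost after median-ratio rescaling and after quantile normalization, that of GTR3 also without Col-0 replicate 2. GTR2 and GTR3 each overlap another locus.

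**Figure D4:**
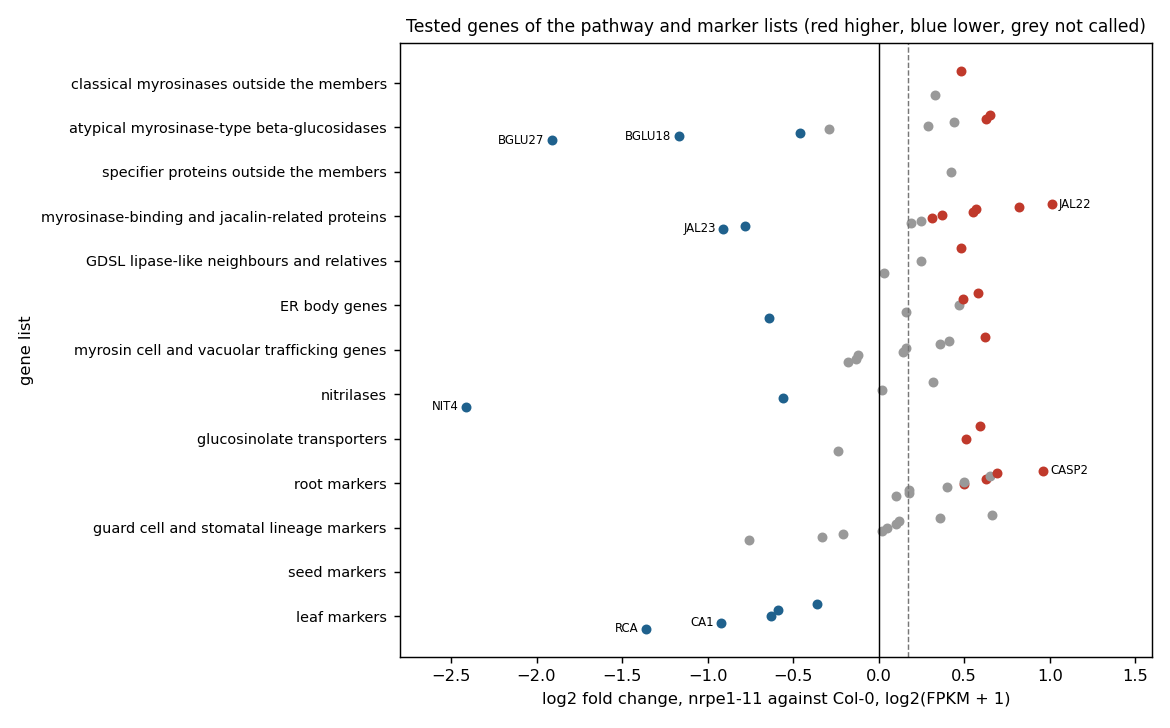
Log2 fold changes of nrpe1-11 against Col-0 for the tested genes of the 9 pathway lists and 4 marker lists (1 point per gene; vertical offsets only separate the points), with red called higher, blue lower and grey not called, and a dashed line at the median of all tested genes, 0.17. NIT4 (-2.41), BGLU27 (-1.91) and BGLU18 (-1.17) lay farthest to the left among the pathway genes and JAL22 (1.01) farthest to the right, the 5 leaf markers were all lower, and no seed marker was tested.

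The patterns most like those of the called members were sought among all tested genes, as the smallest mean absolute difference of log2(FPKM + 1) over the 9 libraries, each gene being centred on its own mean. Closest to TGG2 were RbcX2 (difference 0.0361), a Rubisco assembly chaperone, and POR C (0.044), a protochlorophyllide oxidoreductase. RbcX2 had 15.1 FPKM in nrpe1-11, 27.7 FPKM in the libraries labelled nrpd1-3 and 26.2 FPKM in Col-0. Closest to ESM1 were ABCG35 (0.0353), a membrane transporter, and AT3G22440 (0.0386). For PYK10 they were AT3G05900 (0.0287) and SPS2F (0.0289), a sucrose phosphate synthase. ESP was closest to VTC4 (0.0687) and TLL1 (0.0898), and NSP5 to RPL12-A (0.0483) and AT1G23390 (0.0551). Many genes were about as close, with 1273 genes within 0.1 of PYK10, 483 of ESM1, 122 of TGG2, 109 of NSP5 and 9 of ESP.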

How the data were processed

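RNA-seq of 9 seedling libraries was used as 1 deposited table of FPKM values, computed by the authors. Per the submitters' processing notes, the genome was TAIR10 and the tools included StringTie 2.1.7, HISAT2 2.2.1 and fastp 0.23.2, and their order, settings, strandedness and read length are not given in the sources used here. Poly(A)+ RNA was selected, per the labels' protocols. The 37929 lines gave 37898 genes, all found in RefSeq TAIR10.1, which supplied positions and sequences. 0 columns belonged to other samples.

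Genes with FPKM of at least 1 in at least 3 libraries (18212) were fitted as log2(FPKM + 1) in limma 3.58.1 (R 4.3.3), with 1 mean per genotype, an intensity trend, 14.8 degrees of freedom, two-sided tests and Benjamini-Hochberg adjustment over all tested genes. The self-test on simulated data was run first. Ratios were tested by exact permutation in scipy 1.17.1. Aligned bases were estimated from the steps between low FPKM values, 72.3% to 77.2% of which lay within 0.1 of a step. No p-value was adjusted over a list alone.

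The 9 genes and the lists were chosen with earlier results of these data known. Named were the 9 members, NRPD1 and NRPE1, from each list up to 4 called genes by smallest adjusted p (or the gene with the smallest p), and the 2 genes most like each called member. Alternatives were another pseudocount, other filters and scalings, a replicate block, robust empirical Bayes, only the 6 libraries compared, and leaving out each library. The scalings of the lists were added after seeing the data.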

Additional observations from a re-analysis of the deposited data

How the results depend on the processing

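Over the 8 tested members, the counts called in nrpe1-11 against Col-0 ran from 2 to 5 when each library was left out, 2 being the count without nrpe1-11 replicate 3 (ESM1 and TGG2), and from 4 to 5 under the other alternatives. In nrpe1-11 against nrpd1-3 they ran from 2 to 3 with each library left out, and 4 were called after median-ratio rescaling, where TGG1 (-0.28) and ESP (-0.65) joined. In nrpd1-3 against Col-0 the count was 0 under all alternatives, each left-out library included (0 to 0). With the replicate number as a block, 5 members were called in nrpe1-11 against Col-0, 3 in nrpe1-11 against nrpd1-3 and 0 in nrpd1-3 against Col-0. Same-numbered libraries deviated together weakly at most (r between -0.072 and 0.146). The highest value joined replicate 2 labelled nrpd1-3 with replicate 2 of Col-0, whose ribosomal RNA shares were 19.7% and 21.4%. Whether the numbers pair libraries cannot be told from these values, and exact paired sign-flip tests of the ratios could not go below p = 0.25.

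Reversals were small and met no call. TGG1 in nrpe1-11 against Col-0 was 0.006 after quantile normalization. In nrpd1-3 against Col-0, MVP1 was -0.068 after median-ratio rescaling, -0.061 after quantile normalization and -0.021 when rescaled by protein-coding FPKM, and between -0.021 and 0.12 with each library left out. NSP1 was -0.10, -0.077 and -0.057 under the same scalings, and between -0.043 and 0.12 with each library left out. With each library left out, the log2 ratio of TGG1 to TGG2 in nrpd1-3 against Col-0 lay between -0.039 and 0.012, and that of ESM1 to NSP1 between -0.038 and 0.19. The causes were not tested, and 327 alternative values of single members kept their direction and call, against 9 calls lost, 10 gained and 11 reversals.

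Depth limits ESP, which rests on an estimated 439 to 3077 aligned bases per library. NSP2 at 0 does not show that the gene is silent.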
